A study of Mus musculus with 8 samples.

Results

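The macrophage genes described here are a list of 41 genes that mark macrophages or do their work, among them surface receptors, complement and Fc receptor genes, lysosomal enzymes and chemokines. The list was given by gene name, and a gene was kept when its locus had a value of at least 10 normalised fragments in 2 or more of the 8 libraries. A normalised fragment is a sequenced RNA fragment counted to a locus and divided by a factor that evens out the depth of the libraries. Of the 41 genes, 39 met this rule, at 41 of the 55020 rows and 40 loci of the table. Irf8 was not analysed here. Cd163, a haemoglobin scavenger receptor, stood at 0 in every library of the other groups and at 0.897 and 0.827 normalised fragments in the PR domain knockout, which is 1 fragment in each library, so its level was not measurable at this depth. Near the minimum, Timd4 lay just inside with a second-highest value of 11.4 normalised fragments, and one of the P2ry6 loci lay just outside with 9.93. With 1 locus taken for each gene, and with Lyz1 and Lyz2 joined in 1 locus, 38 loci were compared. The counts below cover these 38 loci and not every listed gene.

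The study grew embryoid bodies, which are floating aggregates of differentiating mouse embryonic stem cells, and sequenced their RNA at day 9. All 8 libraries came from cells of C57BL/6 background without added treatment, 2 in each of 4 groups. The first set held a WT control (labelled PR16wt) and a PRDM16 KO (PR16KO). The second set held another WT control (PR16EXON4wt) and a PR domain KO (PR16EXON4KO), whose label points to exon 4 of the gene. The sets follow the names in the labels, which do not say what was grown together. Prdm16 encodes a zinc-finger protein of the histone methyltransferase family, and the PR domain, near the start of the protein, is related to the SET domain of such enzymes. The labels give neither the number of cell lines or clones behind a group nor whether the 2 libraries of a group are separate cultures, so the p-values below measure the spread between libraries, which may be technical.

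Macrophages are phagocytes that engulf dying cells and microbes, and in the mouse embryo the earliest of them arise from the yolk sac. The transcription factor PU.1, encoded by Spi1, switches on many of their genes, and the growth factor receptor CSF1R keeps them alive in response to the ligands CSF1 and IL-34. The adaptor proteins TYROBP and FCER1G carry signals from Fc receptors and TREM2 through ITAM motifs, which recruit the kinase SYK. Serum-grown embryoid bodies form blood lineages beside heart, vessel and endoderm cells.

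The libraries held 6273789 to 9086885 recovered fragments at named loci. Prdm16 itself, the label check, stood at 24.4 and 26.3 normalised fragments in the Prdm16 control, 11.2 and 1.10 in its knockout, 44.6 and 22.7 in the PR domain control and 23.3 and 15.7 in its knockout. Its log2 fold change was -2.38 ± 0.50 (SE) in the Prdm16 knockout (adjusted p = 0.000306) against -0.71 ± 0.50 in the PR domain knockout (limma adjusted p = 0.377), where the libraries of both groups overlapped. The summed level of 4 Y-linked genes was 1246 to 1323 in the Prdm16 control and 0 to 1.10 normalised fragments in the Prdm16 knockout, against 2750 to 3167 across the second set. The Prdm16 knockout and its control therefore differed in more than the targeted gene, and the knockout and its cell line cannot be told apart in any of the comparisons below.

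The macrophage genes were higher in both knockouts than in their own controls. Their list was chosen with earlier results of these data known, so shares over all tested loci are given for description and are no test of it. In the Prdm16 knockout 34 of the 38 loci rose and 0 fell by limma at an adjusted p below 0.05, where 18.0% of the 16623 tested loci rose and 21.1% fell. Log2 fold changes are on the scale of log2(normalised fragments + 1), which understates the change of low genes. The PR domain knockout had 32 of 38 up and 0 down, where 8.48% of tested loci rose and 10.7% fell. Their median log2 fold change was 1.12 for the Prdm16 knockout against 0.89 for the PR domain knockout, beside -0.03 over all tested loci in each. No macrophage locus fell at an unadjusted p below 0.05 by limma, and 0 fell by edgeR or DESeq2 in either knockout. These medians correspond to 2.17-fold and 1.85-fold. A rise of at least 2-fold that passed the test was seen at 25 loci in the Prdm16 knockout, where 3.30% of tested loci did so, and at 11 in the PR domain knockout, where 1.82% did so. Both knockout libraries lay above both controls at 35 of the 38 loci in the Prdm16 knockout, where 31.3% of tested loci did so, and at 35 in the PR domain knockout, where 24.7% did so. In these bulk samples more cells of a type and more RNA per cell cannot be told apart. Already in the Prdm16 control 35 of the 38 loci had at least 10 normalised fragments in both libraries, and 32 of those rose.

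Summed over the 38 loci, the macrophage genes gave 3859 and 3975 normalised fragments in the Prdm16 control and 8335 and 8504 in its knockout. The second set gave 11127 and 10900 in the control and 20150 and 20322 in the knockout. Scaled to the recovered fragments of each library instead, as CPM, this was 510 to 519 in the lowest group, the Prdm16 control, and 2654 to 2704 in the highest, the PR domain knockout. No group overlapped another in this sum, and the first set lay below the second, each knockout above its own control. The sum was 2.15-fold that of the control in the Prdm16 knockout and 1.84-fold in the PR domain knockout, and in the PR domain control it was 2.81-fold that in the Prdm16 control.

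**Figure D1:**
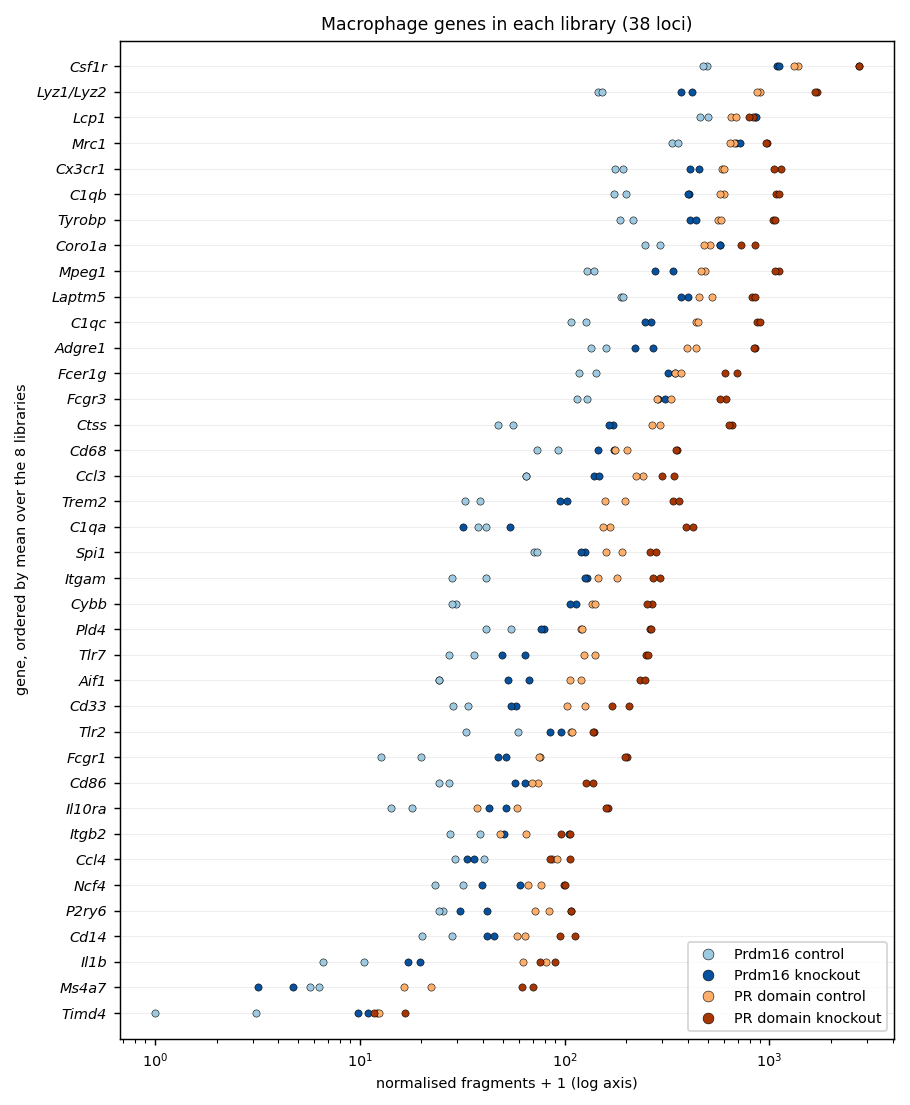
Normalised fragments plus 1 (log axis) at each of the 38 macrophage loci in each of the 8 libraries, 1 point per library, with loci ordered by their mean. For 26 of the 38 loci the groups do not overlap and rise from the Prdm16 control through its knockout and the PR domain control to the PR domain knockout.

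The receptors that receive growth factor, chemokine and cytokine signals rose in both knockouts, 3 of 3 in each. Where a pair of log2 fold changes is given, the Prdm16 knockout comes first. Csf1r, the receptor for CSF1 and IL-34 and the most abundant macrophage locus in fragments, measured 496 and 473 normalised fragments in the Prdm16 control and 1092 and 1112 in its knockout. In the second set it measured 1375 and 1316 in the control and 2741 and 2732 in the knockout. The libraries within a group lay close together and no groups overlapped. Its log2 fold change was 1.18 ± 0.05 (SE, limma adjusted p = 2.77e-17) in the Prdm16 knockout against 1.02 ± 0.05 (limma adjusted p = 2.47e-15) in the PR domain knockout. Cx3cr1, the fractalkine receptor of tissue macrophages and microglia, was at 176 and 191 normalised fragments in the Prdm16 control, 411 and 451 in its knockout, 583 and 599.6 in the PR domain control and 1132 and 1056 in its knockout. Both knockouts lay above both of the controls they belong to, with log2 fold changes of 1.23 ± 0.08 and 0.89 ± 0.08. Il10ra, a chain of the receptor for the anti-inflammatory cytokine IL-10, had the largest rise of these receptors in the PR domain knockout, 1.78 ± 0.24 on the log2 scale, and rose by 1.56 ± 0.24 in the Prdm16 knockout. Its libraries ran from 13.2 to 162 normalised fragments, and the Prdm16 knockout overlapped the PR domain control.

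Spi1, which encodes PU.1, had smaller log2 fold changes than the receptor genes, and the difference between genes was not tested. Its levels were 70.0 and 72.4 normalised fragments in the Prdm16 control, 125 and 119 in its knockout, 189 and 159 in the PR domain control and 261 and 277 in its knockout. The groups did not overlap, and the log2 fold changes were 0.77 ± 0.13 (limma adjusted p = 1.92e-05) in the Prdm16 knockout against 0.63 ± 0.13 (limma adjusted p = 0.000529) in the PR domain knockout.

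The C1q chains, which assemble into the recognition molecule of the classical complement pathway and are secreted by macrophages, did not move together. C1qb stood at 173 and 198 normalised fragments in the Prdm16 control, 402 and 398 in its knockout, 598 and 573 in the PR domain control and 1081 and 1113 in its knockout. C1qc was at 107 and 126 in the Prdm16 control, 264 and 245 in its knockout, 438 and 446 in the PR domain control and 870.2 and 901 in its knockout. Both rose in both knockouts without overlap, by 1.11 and 1.13 on the log2 scale in the Prdm16 knockout against 0.90 and 1.00 in the PR domain knockout. C1qa, the remaining chain, measured 40.3 and 36.7 in the Prdm16 control and 53.3 and 30.8 in its knockout, so that 1 knockout library lay above and 1 below both controls. Its PR domain libraries were apart, at 166 and 153 in the control and 388 and 423 in the knockout. C1qa rose in the PR domain knockout by 1.34 ± 0.18 (SE, limma adjusted p = 1.39e-06), and its log2 fold change in the Prdm16 knockout was 0.08 ± 0.18 (limma adjusted p = 0.776). That value rested on single libraries: it was -0.31 (adjusted p = 0.191) without replicate 1 of the Prdm16 knockout and 0.46 (adjusted p = 0.0365) without replicate 2. The fragment counts of C1qa were 77 and 71 over the libraries of the Prdm16 control and knockout, a depth-adjusted ratio of 1.08 with an exact 95% interval of 0.770 to 1.51, which covers counting error only. In the PR domain set the counts were 312 and 944, a ratio of 2.55 with an interval of 2.24 to 2.90.

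The C1q genes lie side by side on mouse chromosome 4, and the promoter windows of C1qb and C1qc are shown because these neighbours rose alike. Each is the window of 250 bases before the transcription start in the RefSeq table of GRCm38.p6, written 5′ to 3′ on the strand of the gene, with capitals marking the letters GAGGAA or their reverse complement TTCCTC, the core read by PU.1 and related ETS factors. The C1qb window is chr4:136886201-136886450, minus strand, and the C1qc window is chr4:136892915-136893164, minus strand.
C1qb: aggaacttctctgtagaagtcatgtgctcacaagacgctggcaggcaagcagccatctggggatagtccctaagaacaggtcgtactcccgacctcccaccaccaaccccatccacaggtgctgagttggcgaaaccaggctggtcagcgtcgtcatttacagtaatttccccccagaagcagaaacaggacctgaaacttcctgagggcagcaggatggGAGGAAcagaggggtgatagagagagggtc
C1qc: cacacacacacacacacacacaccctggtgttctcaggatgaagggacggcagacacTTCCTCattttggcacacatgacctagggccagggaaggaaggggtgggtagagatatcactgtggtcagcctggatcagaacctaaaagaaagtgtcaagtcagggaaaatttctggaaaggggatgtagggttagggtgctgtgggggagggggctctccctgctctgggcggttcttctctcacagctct
The match starts at position -30 in C1qb and -193 in C1qc, counted from the RefSeq transcription start. In the GENCODE M21 annotation the C1qc gene starts inside its window, at 136893065, so this position depends on the annotation. Of the 26 member genes with a window in the table, 13 (50%) held GAGGAA on either strand, against 23.1% of the 27025 windows of all genes. The letters TTGCNNAA, read by C/EBP factors, were in 11.5% of the member windows and 9.55% of all windows. Each motif was searched on both strands, and neither motif contains the other. These shares describe letters and not binding.

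**Figure D2:**
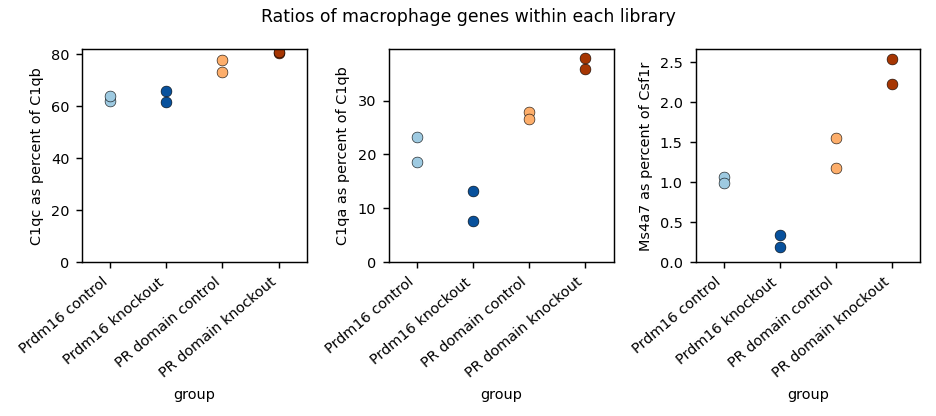
Level of C1qc and C1qa as a percent of C1qb, and of Ms4a7 as a percent of Csf1r, in each library (1 point per library, linear axes from 0). C1qa is at 18.6 to 23.3 percent of C1qb in the Prdm16 control, 7.73 to 13.3 percent in its knockout and 35.9 to 38 percent in the PR domain knockout, while C1qc lies between 61.6 and 80.9 percent in every library.

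Ratios of the chains within each library were compared next. C1qc was 62.0% and 63.8% of C1qb in the Prdm16 control and 65.7% and 61.6% in its knockout, and these values overlapped. In the PR domain set C1qc was 73.2% and 77.8% of C1qb in the control and 80.5% and 80.9% in the knockout, higher without overlap. C1qa was 23.3% and 18.6% of C1qb in the Prdm16 control and 13.3% and 7.73% in its knockout. For the second set the C1qa values were 27.8% and 26.7% of C1qb in the control and 35.9% and 38% in the knockout. The C1qa share was thus lower in both Prdm16 knockout libraries than in their controls and higher in both PR domain knockout libraries than in theirs. A second locus carrying the name C1qc held 55.4% to 71.8% of the fragments of the main one, and the positions of both loci are not stated in the files used.

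All 5 ITAM adaptors, Fc receptors and partner receptors rose in both knockouts. Tyrobp, the adaptor of TREM2 and other receptors, stood at 215 and 185 normalised fragments in the Prdm16 control, 408 and 438 in its knockout, 561 and 580.0 in the PR domain control and 1042 and 1069 in its knockout. It ranked first among the macrophage loci in each group by FPKM, a level that is also divided by gene length, with means in the authors' table of 60.4 in the Prdm16 control, 128 in its knockout, 172 in the PR domain control and 318 in its knockout. Fcer1g, the shared gamma chain of Fc receptors, was at 117 and 141 normalised fragments in the Prdm16 control, 318 and 347 in its knockout, 346 and 368 in the PR domain control and 605 and 694 in its knockout. The Prdm16 knockout overlapped the PR domain control for Fcer1g, while each knockout lay above its own control. The log2 fold changes were 1.08 ± 0.08 and 0.89 ± 0.08 for Tyrobp, and 1.36 ± 0.10 and 0.86 ± 0.10 for Fcer1g, in the Prdm16 and PR domain knockouts. Fcgr1, the high-affinity receptor for IgG, rose by 1.64 and 1.40. Trem2, a lipid and cell debris receptor, rose by 1.48 and 0.99, and Fcgr3, a low-affinity IgG receptor, by 1.28 and 0.95. Over the 8 libraries these genes ran from 11.7 to 200.1 normalised fragments for Fcgr1, 31.8 to 362 for Trem2 and 115 to 610.0 for Fcgr3.

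Both integrin chains rose in each knockout. Itgam encodes CD11b, which pairs with the chain encoded by Itgb2 to form the complement receptor Mac-1. Itgam was at 40.3 and 27.3 normalised fragments in the Prdm16 control, 128 and 124 in its knockout, 178 and 144 in the PR domain control and 289.8 and 270.5 in its knockout. Its locus also carries the names Gm45700 and Gm49368, so its fragments may not all be from Itgam. The rise was 1.89 ± 0.16 on the log2 scale in the Prdm16 knockout against 0.80 ± 0.16 in the PR domain knockout. No groups overlapped. Itgb2 measured 26.5 and 37.6 normalised fragments in the Prdm16 control, 104 and 49.5 in its knockout, 63.9 and 47.5 in the PR domain control and 95.1 and 105 in its knockout. The Prdm16 knockout libraries lay far apart, with 1 above and 1 inside the range of the PR domain control. Its log2 fold changes of 1.16 ± 0.25 (limma adjusted p = 0.000437) and 0.85 ± 0.25 (limma adjusted p = 0.0153) rested on single libraries. Without replicate 1 of the Prdm16 knockout the first was 0.63 (adjusted p = 0.0667), and the second lost its call without replicate 2 of the PR domain control or either replicate of the PR domain knockout, with adjusted p up to 0.187.

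Of the receptors that recognise microbial patterns and nucleotides, 3 of 4 rose in the Prdm16 knockout and 2 of 4 in the PR domain knockout. Tlr7, an endosomal sensor of single-stranded RNA, was at 35.0 and 26.3 normalised fragments in the Prdm16 control, 63.3 and 48.4 in its knockout, 139.9 and 123 in the PR domain control and 249 and 255 in its knockout. It rose by 0.85 ± 0.18 and 0.94 ± 0.18 on the log2 scale, with no overlap between groups. Neither call was kept on log2(FPKM + 1), where the values were 0.32 and 0.38. Tlr2, a sensor of bacterial lipoproteins, was at 58.3 and 32.0 normalised fragments in the Prdm16 control, 95.5 and 83.6 in its knockout, 106 and 107 in the PR domain control and 138 and 136 in its knockout. Both Prdm16 knockout libraries exceeded their controls, which were far apart from each other, and the rise was 1.03 ± 0.20 (limma adjusted p = 8.99e-05). It was 1.45 without replicate 1 of the Prdm16 control and 0.61 without replicate 2 (adjusted p = 0.015), past the threshold in both. In the PR domain knockout Tlr2 also lay above both controls, but its log2 fold change of 0.36 ± 0.20 did not pass (limma adjusted p = 0.227). Cd14, the co-receptor that hands lipopolysaccharide to TLR4, rose by 0.87 ± 0.22 and 0.76 ± 0.22. The calls for Cd14 rested on single libraries: the rise was 0.62 (adjusted p = 0.0618) without replicate 1 of the Prdm16 control, and in the PR domain knockout adjusted p reached 0.173 when replicate 1 or 2 of the control or replicate 2 of the knockout was left out. P2ry6, a receptor for extracellular UDP, had log2 fold changes of 0.52 ± 0.22 (limma adjusted p = 0.0557) and 0.47 ± 0.22 (limma adjusted p = 0.134). P2ry6 passed in the Prdm16 knockout with TMM or DESeq2 size-factor scaling (adjusted p = 0.0362 and 0.0402), and in the PR domain knockout by edgeR (adjusted p = 0.0277) and by limma on the 4 libraries of that set alone (adjusted p = 0.047). Its libraries ran from 23.5 to 107 normalised fragments. A second P2ry6 locus, with 36.0% to 81.4% of the fragments of the main one, had log2 fold changes of 0.92 (limma adjusted p = 0.015) and 0.66 (limma adjusted p = 0.128).

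Among the surface glycoproteins and scavenger receptors, 6 of 7 rose in each knockout, with a different exception in each. Mrc1, the mannose receptor, was at 335 and 358 normalised fragments in the Prdm16 control, 689 and 715 in its knockout, 669 and 643 in the PR domain control and 975 and 963 in its knockout. For Mrc1 the Prdm16 knockout lay above the PR domain control, unlike most macrophage genes, and the log2 fold changes were 1.02 ± 0.07 and 0.56 ± 0.07. Adgre1, which encodes the classical marker F4/80, was at 134 and 158 normalised fragments in the Prdm16 control, 219.6 and 271 in its knockout, 437 and 394 in the PR domain control and 849.6 and 838 in its knockout. It rose by 0.74 ± 0.10 and 1.02 ± 0.10 with no overlap. Cd68, a lysosomal membrane glycoprotein, rose by 0.94 and 0.91, the sialic acid receptor gene Cd33 by 0.86 and 0.73, and the T cell costimulator Cd86 by 1.23 and 0.89. The Cd33 call in the PR domain knockout was lost without replicate 1 of its control or replicate 1 of the knockout, with adjusted p up to 0.105. Levels over the 8 libraries ran from 72.1 to 353 normalised fragments for Cd68, 27.6 to 206 for Cd33 and 23.3 to 137 for Cd86.

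Ms4a7, a tetraspan membrane protein of macrophages, and Timd4, a receptor for the phosphatidylserine of dying cells, were the exceptions. Ms4a7 measured 5.30 and 4.70 normalised fragments in the Prdm16 control and 3.72 and 2.2 in its knockout, and so was lower in both knockout libraries. In the second set it measured 21.3 and 15.5 in the control and 61.0 and 69.5 in the knockout. It rose there by 1.79 ± 0.41 (SE, limma adjusted p = 0.00151), while the Prdm16 knockout value of -0.62 ± 0.41 did not pass (limma adjusted p = 0.233). The Prdm16 set rests on 10 fragments in the control and 5 in the knockout, a ratio of 0.585 with an exact 95% interval of 0.157 to 1.88, against 36 and 152 fragments and a ratio of 3.55 (2.46 to 5.26) in the PR domain set. Both intervals cover counting error only. Relative to Csf1r in the same library, Ms4a7 was at 1.07% and 0.994% in the Prdm16 control and 0.341% and 0.198% in its knockout. In the second set it was at 1.55% and 1.18% in the control and 2.23% and 2.54% in the knockout. The Ms4a7 promoter window (chr19:11336147-11336396, minus strand, GRCm38.p6, RefSeq) is shown as that of the gene whose change differed most between the knockouts, and it holds no GAGGAA on either strand.
Ms4a7: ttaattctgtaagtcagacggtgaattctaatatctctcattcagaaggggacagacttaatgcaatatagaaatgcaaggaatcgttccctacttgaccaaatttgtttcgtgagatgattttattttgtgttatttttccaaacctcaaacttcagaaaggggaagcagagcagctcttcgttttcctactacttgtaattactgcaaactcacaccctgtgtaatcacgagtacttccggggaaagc

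Timd4 had the lowest mean over the 8 libraries, at 2.12 and 0 normalised fragments in the Prdm16 control, 9.93 and 8.80 in its knockout, 11.2 and 11.4 in the PR domain control and 10.8 and 15.7 in its knockout. One library of the Prdm16 control had no fragment, and the other 3 groups lay near each other. The log2 fold change was 2.55 ± 0.55 (SE, limma adjusted p = 0.000442) in the Prdm16 knockout against 0.19 ± 0.55 (limma adjusted p = 0.866) in the PR domain knockout. The first rests on 2 fragments against 16, a ratio of 9.36 with an exact 95% interval of 2.2 to 83.9, for counting error only. Its log2 fold change was 3.37 without replicate 1 of the Prdm16 control and 1.73 without replicate 2.

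The lysosomal and degradative proteins rose in both knockouts, 5 of 5 in each. The locus shared by Lyz1 and Lyz2, which encode lysozymes that cleave bacterial cell walls, was at 144 and 151 normalised fragments in the Prdm16 control, 369.7 and 419 in its knockout, 896 and 873 in the PR domain control and 1701 and 1666 in its knockout. Its groups did not overlap, and it rose by 1.41 ± 0.07 in the Prdm16 knockout (SE, adjusted p = 1.02e-15) against 0.93 ± 0.07 in the PR domain knockout (limma adjusted p = 3.29e-11). Mpeg1, which encodes the pore-forming protein perforin-2, was at 127 and 138 normalised fragments in the Prdm16 control, 277 and 336 in its knockout, 485 and 463 in the PR domain control and 1109.7 and 1059.5 in its knockout. It rose by 1.19 ± 0.09 and 1.19 ± 0.09, and the difference between these was 0.00 ± 0.13 (limma adjusted p = 0.996). Ctss, the cysteine protease cathepsin S, rose by 1.71 and 1.21. Laptm5, a lysosomal membrane protein of blood cells, rose by 1.02 and 0.78, and Pld4, an endolysosomal exonuclease of single-stranded nucleic acid, by 0.72 and 1.12. Their libraries ran from 46.1 to 658 normalised fragments for Ctss, 187 to 852 for Laptm5 and 40.3 to 263 for Pld4, lowest in the Prdm16 control and highest in the PR domain knockout in each case.

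Lyz1 and Lyz2 cannot be told apart in these values, and their coding sequences show how alike they are. In GENCODE M21 (GRCm38) both are 444 bases long without the stop codon and identical at 95.0% of positions, with 22 differences. The first 90 coding bases are given with the 7 differing bases in capitals.
Lyz1: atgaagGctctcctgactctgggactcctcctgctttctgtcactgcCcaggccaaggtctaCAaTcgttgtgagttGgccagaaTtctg
Lyz2: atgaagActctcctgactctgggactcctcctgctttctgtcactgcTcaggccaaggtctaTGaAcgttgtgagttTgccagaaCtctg
Their promoter windows of 250 bases (RefSeq, GRCm38.p6) lie at chr10:117292869-117293118, minus strand, for Lyz1 and chr10:117282273-117282522, minus strand, for Lyz2, and are identical at 79.4% of the 252 aligned columns. Neither holds GAGGAA, while the window of Ctss (chr3:95526536-95526785, plus strand) holds it at position -164, in capitals. They are shown as the promoters of the lysosomal locus with the most fragments and of the lysosomal gene that rose most. In GENCODE M21 the Lyz2 gene starts inside its RefSeq window, at 117282321.
Lyz1 promoter: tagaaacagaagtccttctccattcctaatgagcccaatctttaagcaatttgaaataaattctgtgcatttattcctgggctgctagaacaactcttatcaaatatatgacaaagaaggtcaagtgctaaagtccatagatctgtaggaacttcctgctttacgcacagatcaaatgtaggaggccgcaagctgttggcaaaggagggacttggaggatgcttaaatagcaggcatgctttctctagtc
Lyz2 promoter: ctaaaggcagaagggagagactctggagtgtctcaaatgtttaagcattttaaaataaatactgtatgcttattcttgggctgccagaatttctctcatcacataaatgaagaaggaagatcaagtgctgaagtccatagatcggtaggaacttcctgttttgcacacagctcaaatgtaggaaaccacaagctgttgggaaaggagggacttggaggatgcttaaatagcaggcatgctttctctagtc
Ctss promoter: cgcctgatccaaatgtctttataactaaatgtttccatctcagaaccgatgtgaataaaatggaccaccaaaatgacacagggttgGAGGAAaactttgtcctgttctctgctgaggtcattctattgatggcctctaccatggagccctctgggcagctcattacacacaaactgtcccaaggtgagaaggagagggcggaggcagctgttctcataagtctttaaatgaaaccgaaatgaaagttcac

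The NADPH oxidase, the enzyme complex that makes superoxide in the phagosome, was represented by its membrane subunit Cybb and its cytosolic subunit Ncf4. Cybb stood at 28.6 and 27.3 normalised fragments in the Prdm16 control, 113 and 106 in its knockout, 135 and 140.4 in the PR domain control and 266 and 252 in its knockout. It rose by 1.93 ± 0.15 in the Prdm16 knockout against 0.91 ± 0.15 in the PR domain knockout, with no overlap between any groups. Ncf4 measured 22.3 and 31.0 normalised fragments in the Prdm16 control, 38.5 and 59.4 in its knockout, 76.1 and 65.0 in the PR domain control and 98.7 and 99.3 in its knockout. Both knockouts lay above their controls. The rise of 0.84 ± 0.23 passed in the Prdm16 knockout (limma adjusted p = 0.00365), but not without replicate 1 of the control or replicate 2 of the knockout (adjusted p up to 0.117), and the value of 0.49 ± 0.23 did not pass in the PR domain knockout (limma adjusted p = 0.141). The latter passed by edgeR (adjusted p = 0.0362) and by limma on the 4 libraries of that set alone (adjusted p = 0.0496).

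The cytokine and chemokine genes did not move together, with 2 of 3 up in the Prdm16 knockout and 1 of 3 in the PR domain knockout. Ccl3, which encodes the chemokine MIP-1α, measured 63.6 and 64.0 normalised fragments in the Prdm16 control, 138 and 146 in its knockout, 241 and 222 in the PR domain control and 299 and 342 in its knockout. It rose by 1.14 ± 0.12 in the Prdm16 knockout against 0.46 ± 0.12 in the PR domain knockout (limma adjusted p = 0.00599). The second call was lost without replicate 2 of the PR domain control or replicate 2 of its knockout, with adjusted p up to 0.136. Ccl4, its neighbour gene for MIP-1β, was at 39.2 and 28.2 normalised fragments in the Prdm16 control, 32.3 and 35.2 in its knockout, 86.2 and 90.8 in the PR domain control and 84.3 and 106 in its knockout. Within each set the libraries of Ccl4 overlapped, and its log2 fold changes were 0.02 ± 0.21 (limma adjusted p = 0.957) and 0.09 ± 0.21 (limma adjusted p = 0.829). The sign of the first turned to -0.02 with scaling by total fragments. Il1b, the inflammatory cytokine interleukin-1β, stood at 9.54 and 5.64 normalised fragments in the Prdm16 control, 16.1 and 18.7 in its knockout, 80.1 and 61.9 in the PR domain control and 88.8 and 75.3 in its knockout. It rose in the Prdm16 knockout by 1.13 ± 0.29 (limma adjusted p = 0.00205) and overlapped its control in the PR domain knockout at 0.21 ± 0.29 (limma adjusted p = 0.686). Its larger contrast was between the controls, with a log2 fold change of 3.09 ± 0.29 for the PR domain control over the Prdm16 control.

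The actin-binding proteins rose in both knockouts, 3 of 3 in each, and had the lowest median difference of the role groups between the controls, 0.88 on the log2 scale. Lcp1, the leukocyte plastin, was at 455 and 501 normalised fragments in the Prdm16 control, 849 and 857 in its knockout, 651 and 687 in the PR domain control and 827 and 796 in its knockout. It rose by 0.84 ± 0.07 and 0.28 ± 0.07, the latter (limma adjusted p = 0.00239) not passing without replicate 1 of the PR domain control (adjusted p = 0.0568). Coro1a, coronin of leukocytes, was at 293 and 245 normalised fragments in the Prdm16 control, 572 and 571 in its knockout, 509 and 477 in the PR domain control and 721 and 851 in its knockout. For both genes the Prdm16 knockout lay above the PR domain control. Coro1a rose by 1.09 ± 0.08 and 0.67 ± 0.08, and Aif1, which encodes the microglial marker IBA1, by 1.29 and 1.08. The libraries of Aif1 ran from 23.3 to 245 normalised fragments.

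Levels can be compared between genes only per length, in the authors' FPKM. FPKM did not follow the fragments of a locus at a fixed ratio. Itgam in the PR domain control had 178 and 144 normalised fragments at 10.2 and 3.84 FPKM. After Tyrobp, the highest group means in the Prdm16 control were 32.5 FPKM for Coro1a and 29.8 for Fcer1g, and Timd4 was the lowest of the 38 loci in each group. The order shifted between the sets. The Lyz1/Lyz2 locus ranked 7 of 38 in the Prdm16 control and knockout, at 14.5 and 38.7 FPKM, and 2 of 38 in the PR domain control and knockout, at 86.9 and 165 FPKM. Lcp1 ranked 6 in both groups of the first set and 10 and 16 in the second.

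**Figure D3:**
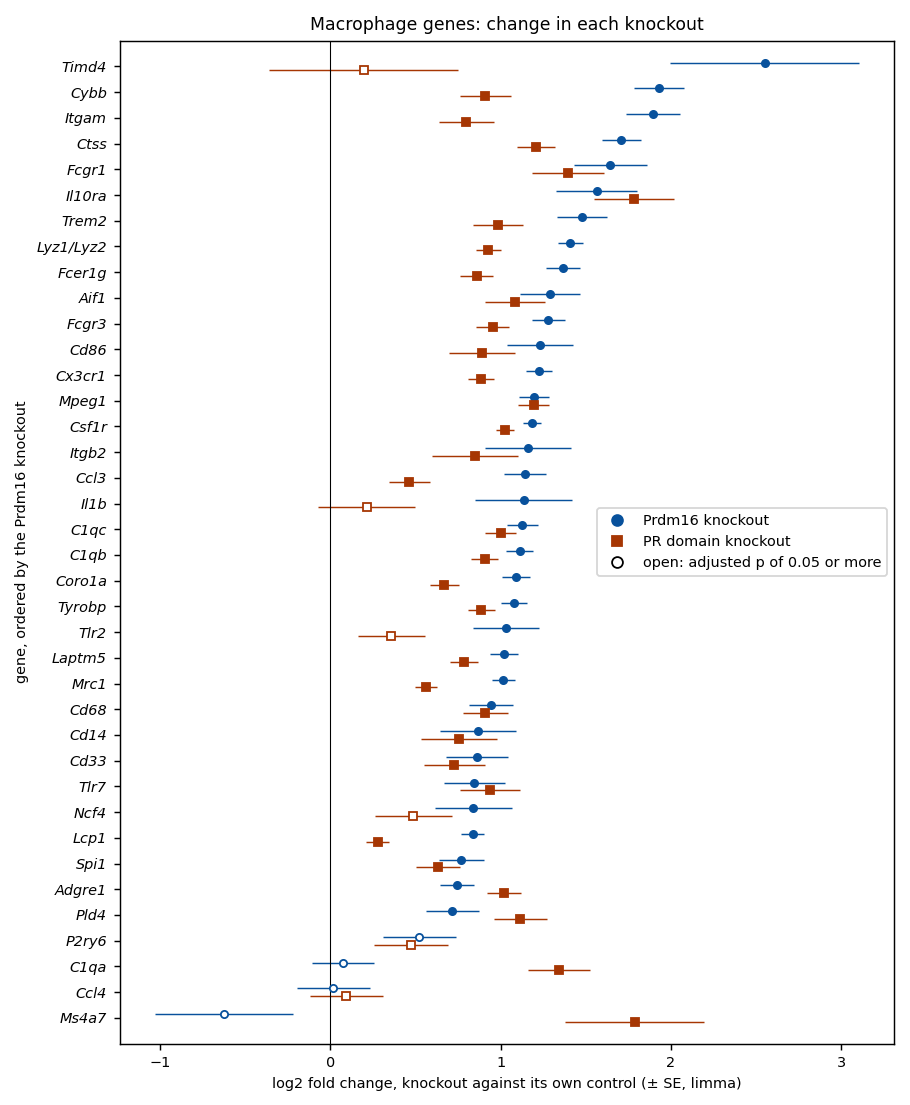
Log2 fold change of each macrophage locus in each knockout against its own control, with bars of 1 SE from limma (filled, adjusted p below 0.05; open, not below). Of the 38 loci, 30 are filled in both knockouts, and C1qa and Ms4a7 stand out at the bottom with values near or below 0 in the Prdm16 knockout and above 1 in the PR domain knockout.

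The knockouts were compared by the difference of their effects, the log2 fold change in the Prdm16 knockout minus that in the PR domain knockout. Of the 38 loci, 30 rose in both knockouts. Tlr2, Timd4, Ncf4 and Il1b passed in the Prdm16 knockout and not in the PR domain knockout, C1qa and Ms4a7 the reverse, and P2ry6 and Ccl4 passed in neither in this fit. The PR domain calls of Ncf4 and P2ry6 depend on the test, as given with each gene. Among these, the difference itself passed for Timd4, C1qa and Ms4a7. The difference was higher at 11 of the 38 loci and lower at 2 by limma at an adjusted p below 0.05, where 8.60% of the tested loci were higher and 7.81% lower. The loci with a larger rise in the Prdm16 knockout included Itgam at 1.10 ± 0.23 (SE, limma adjusted p = 0.000849), Cybb at 1.02 ± 0.21 (limma adjusted p = 0.000814) and Lcp1 at 0.56 ± 0.09 (limma adjusted p = 6.57e-05). Those with a larger rise in the PR domain knockout were Ms4a7 at -2.41 ± 0.57 (limma adjusted p = 0.00349) and C1qa at -1.26 ± 0.26 (limma adjusted p = 0.000704). For 7 of the 13 the call was kept whichever single library was left out: C1qa, Itgam, Mrc1, Ms4a7, Lyz1/Lyz2, Cybb and Lcp1. For Csf1r the difference was 0.16 ± 0.08 (limma adjusted p = 0.152) and for Spi1 0.14 ± 0.18 (limma adjusted p = 0.678), which does not show that the knockouts acted alike on them.

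The macrophage genes also differed between the WT controls. All 38 macrophage loci that passed the minimum were higher in the PR domain control than in the Prdm16 control by limma, where 16.3% of the tested loci were higher and 16.7% lower, with a median log2 fold change of 1.60. The count was 38 by edgeR, 37 by DESeq2 and 34 on log2(FPKM + 1). The values ran from 0.49 for Lcp1 to 3.09 for Il1b, and 34 loci were at least 2-fold higher, where 3.01% of tested loci were. The limma counts include Timd4 and Ms4a7, which reached 10 normalised fragments only in the second set. They met the minimum through the groups where they were high, so their direction between the controls is not independent of it. At all 38 both PR domain control libraries lay above both Prdm16 controls, where 32.1% of tested loci did so. Both of these groups are labelled WT on the same background and at the same day, and what else differs between the sets cannot be told apart. For 26 of the 38 loci the groups did not overlap and rose from the Prdm16 control through its knockout and the PR domain control to the PR domain knockout, which 1.99% of the tested loci did. The Prdm16 knockout lay above the PR domain control for Mrc1, Lcp1 and Coro1a, overlapped it for Il10ra, Fcer1g, Fcgr3 and Itgb2, and lay below it for the other 31.

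Related myeloid genes outside the list were counted over lists of genes with shared roles (values are log2 fold changes). For every list here and below, the shares of all tested loci were 18.0% up and 21.1% down in the Prdm16 knockout. In the PR domain knockout they were 8.48% up and 10.7% down. Of 13 tested pan-leukocyte genes, 12 rose in the Prdm16 knockout against 11 in the PR domain knockout. Ptprc, which encodes CD45, rose by 1.56 and 0.80, and the tetraspanin gene Cd53 by 1.56 and 0.84. The list of CSF1 receptor ligands and myeloid transcription factors had 8 of 14 up in each knockout and 1 down in the PR domain knockout. Csf1, the ligand, named here after its values were seen, had log2 fold changes of -0.01 and 0.05 that did not pass, and Il34 was below the minimum. Between the controls Csf1 was higher in the PR domain control, by 0.82 ± 0.09 (SE, limma adjusted p = 8.97e-09) and without overlap. Maf, a macrophage transcription factor, rose by 0.85 and 0.35. Klf4 was the one that fell, at -0.48 in the PR domain knockout, and it rose by 0.80 in the Prdm16 knockout. Of 17 signalling genes downstream of ITAM and CSF1 receptors, 13 and 11 rose, with the β-glucan receptor gene Clec7a at 2.27 and 0.97 and the kinase gene Syk at 0.47 and 0.90.

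Other Fc receptors, integrins and complement receptors had 6 of 11 up and 2 down in the Prdm16 knockout, and 5 up and 1 down in the PR domain knockout. C3ar1, the receptor for complement C3a, rose by 1.25 and 0.70. Cd93, which endothelial cells also express, was at -0.99 and -1.12, a fall in both. Vsig4, a complement receptor of resident macrophages, was at 0 in every library. Of 13 other Toll-like receptors and partners, 7 and 4 rose, with Ly86 at 1.80 and 1.10. Among NADPH oxidase partners 3 of 4 rose in each, with the cytosolic subunit gene Ncf1 at 1.27 and 0.45. Inflammatory cytokines and chemokines had 5 and 4 of 11 up, with the chemokine receptor gene Ccr1 at 2.49 and 0.88. Engulfment and lysosome genes had 12 of 19 up and 2 down in the Prdm16 knockout and 13 up and 1 down in the PR domain knockout, with Ctsb, which encodes cathepsin B, at 0.75 and 0.68. Of 9 resident macrophage and microglia markers, 7 and 4 rose and 1 fell in each. The one that fell was Sall1, at -1.77 and -1.60, a transcription factor of microglia that kidney and other tissues also express.

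Markers of other cell types moved beside the macrophage genes, and their part in the result was not tested. Counts over 2 or 3 tested genes are too few to set against the shares of all tested loci. Monocyte markers had 4 of 5 tested genes up in each knockout, with F13a1 at 1.58 and 0.32 on the log2 scale. Their sum ran from 584 to 598 normalised fragments in the Prdm16 control, 1380 to 1470 in its knockout, 1914 to 1942 in the PR domain control and 2614 to 2696 in its knockout. The monocyte gene Ly6c2 was at or below 1.24 normalised fragments in every library. The neutrophil list had 1 of 2 tested genes up in each, with the other 11 genes below the minimum and Ly6g at 0 in every library, and its sum was 38.2 to 41.4 in the Prdm16 control and at most 110.8 in any library. Of 3 tested mast cell and basophil markers, 1 fell in the Prdm16 knockout, and 1 rose and 1 fell in the PR domain knockout, with Cpa3, Cma1, Mcpt8 and Tpsb2 at 0 throughout. Lymphoid markers had 1 of 3 up in each and 1 down in the Prdm16 knockout, with Cd3e, Cd3g and Gzma at 0 throughout.

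Outside the white blood cells the lists moved in both directions. Erythroid markers rose at 6 of 9 genes in the Prdm16 knockout, with 1 down, and 7 of 9 in the PR domain knockout, and their sum was 1.40-fold and 1.95-fold that of the control. Megakaryocyte markers rose at 3 of 9 and fell at 2 in the Prdm16 knockout and rose at 6 in the PR domain knockout, with sums of 1.07-fold and 1.73-fold. Endothelial markers fell at 6 of 10 and rose at 2 in the Prdm16 knockout and fell at all 10 in the PR domain knockout, with sums of 0.913-fold and 0.708-fold. Cardiomyocyte markers fell at 6 and 7 of 8, and 1 rose in each. Visceral endoderm markers rose at 8 of 8 in both knockouts, with sums of 2.04-fold and 1.83-fold, and were lower at 8 of 8 in the PR domain control than in the Prdm16 control, with a sum of 0.206-fold. Between the controls the sums of the other lists differed as well. They were 2.2-fold for cardiomyocyte markers (7 of 8 genes higher in the PR domain control) and 1.37-fold for endothelial markers (9 of 10 higher). For megakaryocyte markers the sum was 1.45-fold (3 of 9 higher), and for erythroid markers 1.39-fold (5 of 9 higher). Over all tested loci, 16.3% were higher in the PR domain control and 16.7% lower. The macrophage sum and the visceral endoderm sum were both higher in each knockout, and between the controls they differed in opposite directions.

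**Figure D4:**
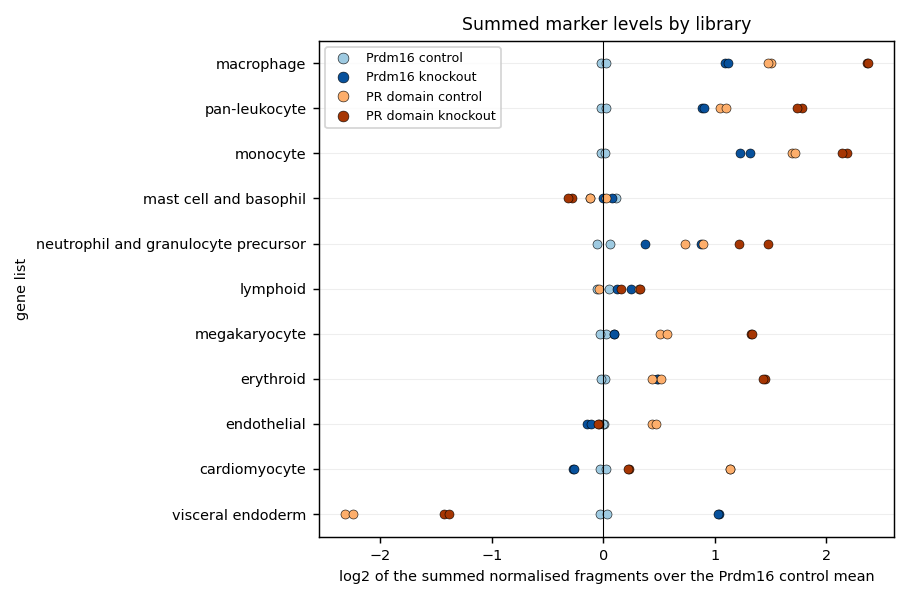
Summed level of the macrophage loci and of the marker lists of other cell types in each library, as the log2 ratio to the mean of the Prdm16 control (1 point per library). The macrophage, pan-leukocyte, monocyte and megakaryocyte sums rise through the groups in the same order without overlap, while the visceral endoderm sum is highest in the Prdm16 knockout and lowest in the PR domain control.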

How the data were processed

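RNA from 8 libraries of day 9 embryoid bodies was prepared with the Illumina TruSeq protocol, per the labels' protocols. Per the submitters' processing notes, the tools named were TopHat2 2.1.1, SAMtools 1.5, deepTools and Cufflinks 2.2.1, with build mm10. The deposited signal values are fragment counts per locus divided by a factor for each library. The step of each library (0.827 to 1.24) gave whole fragments, within 0.1, for at least 99.99% of values above 0, and these recovered counts were used for edgeR, DESeq2 and depth. The authors' FPKM table was used for levels per length and as an alternative. Rows without a gene name (787 loci, 1.88% to 2.53% of fragments) were left out, and 1390 loci carry 2 or more names.

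When the tests were set down, the values were taken as normalised fragments, with edgeR as the main test had they been raw counts. Because they are depth-scaled, the main test was limma 3.58.1 in R 4.3.3 on log2(value + 1), with the 4 group means fitted over all 8 libraries (residual df 4, prior df 25.4), loci reaching 10 normalised fragments in 2 libraries, and Benjamini-Hochberg adjustment over 16623 loci. Tested on simulated data for the Prdm16 knockout comparison over 16623 loci, it called 23 of 50 loci changed 1.25-fold, 42 of 50 changed 2-fold, and 17 of 16423 unchanged ones. Few simulated loci changed, equally up and down, unlike the data. These counts therefore do not cover wide changes in composition or differences between cell lines. Alternatives used edgeR 4.0.16, DESeq2 1.42.0, other scalings, pseudocounts and filters, and left out each library in turn. Libraries of a group differed by more than counting noise (chi-square per degree of freedom 1.40 to 2.23). Intervals of fragment ratios are exact at 95% for counting error only and do not cover this added spread.

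The members and gene lists were chosen with earlier results of these data known. Per-library values were given for the 2 highest members of each role group, members called in 1 knockout and not the other, and Csf1r, Spi1, Lyz1 and Lyz2. From other lists up to 4 genes of smallest adjusted p and defining markers at 0 could be named. Csf1, Il34 and Ly6c2 were named outside this rule, after their values were seen. Promoter windows came from the RefSeq table (GRCm38.p6) and positions and coding sequence from GENCODE M21. Irf8 was not analysed here.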

Additional observations from a re-analysis of the deposited data

Results flagged for a closer look

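The interaction term, the log2 fold change in the Prdm16 knockout minus that in the PR domain knockout, passed an adjusted p of 0.05 by limma for 13 of the 38 macrophage loci, that is, the same contrast gave different sizes in the 2 knockouts. It was 2.36 for Timd4, 1.10 for Itgam and 1.02 for Cybb. Smaller positive differences were 0.68 for Ccl3, 0.56 for Lcp1, 0.51 for Fcer1g, 0.50 for Ctss, 0.48 for Lyz1/Lyz2, 0.45 for Mrc1, 0.42 for Coro1a and 0.34 for Cx3cr1. The difference was -2.41 for Ms4a7 and -1.26 for C1qa, the loci with a larger rise in the PR domain knockout. The calls for C1qa, Itgam, Mrc1, Ms4a7, Lyz1/Lyz2, Cybb and Lcp1 were kept in each of the 8 fits that left out a library. The Timd4 call was lost in 7 of those 8 fits, those for Cx3cr1 and Ctss in 5 each, Fcer1g in 4, Coro1a in 3 and Ccl3 in 1, the fit without replicate 1 of the PR domain knockout. Each of these kept its sign.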

How the results depend on the processing

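In the fits run, each macrophage locus kept its direction in the knockout where it was called. By DESeq2, 3983 loci passed in the Prdm16 knockout, 1797 in the PR domain knockout, 1179 for the difference of effects and 3388 between the controls, against 6502, 3190, 2728 and 5481 by limma. On log2(FPKM + 1) these counts were 2244, 582, 199 and 1717, and 20 macrophage loci passed in the PR domain knockout against 32. In the Prdm16 knockout 26 passed on that scale, against 34. There the calls for Fcgr1, Itgam, Tlr2, Tlr7, Cd68, Cd33, Ncf4 and Il1b were lost. The calls lost in the PR domain knockout were those of Spi1, Itgam, Itgb2, Cd14, Tlr7, Cd68, Cd33, Cd86, Cybb, Ccl3, Aif1 and Lcp1. Between the controls 34 of 38 passed by FPKM, and 37 by DESeq2 or without the value filter. By edgeR 34 passed in each knockout. The 13 macrophage differences became 6 by DESeq2, which gave no adjusted p for some, 1 by FPKM, that of Ms4a7, and 8 without the value filter, where 1642 loci passed. Without PR domain knockout replicate 1 there were 8. By DESeq2 the calls for Cd14 and Il1b in the Prdm16 knockout and for Itgb2 in the PR domain knockout were lost, and total-fragment scaling ended the differences of Cx3cr1 and Ctss. The cause of these losses was not tested.

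Leaving out each library gave 5028 to 6477 loci in the Prdm16 knockout, 2180 to 3367 in the PR domain knockout, 1950 to 2390 for the difference and 4047 to 5675 between the controls. For macrophage loci the ranges were 32 to 34, 29 to 32, 8 to 13 and 37 to 38. C1qa ran from -0.31 (reversed, without Prdm16 knockout replicate 1) to 0.46 (without replicate 2). Ccl4 in the Prdm16 knockout reversed to -0.020 with total-fragment scaling and to -0.017 with FPKM, and ran from -0.21 to 0.25 over the left-out libraries. In the PR domain knockout, leaving out its replicate 2 gave -0.059 for Timd4 and -0.069 for Ccl4, with highest values of 0.45 and 0.26. Of these values, that of 0.46 was called. The cause was not tested.

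With the replicate block 6501, 3210 and 2719 loci passed, and 34, 32 and 13 macrophage loci. The deviations of same-numbered libraries correlated at -0.033 and 0.031. Counting noise also weakens such a correlation, so it does not settle whether same-numbered libraries were paired. Scaling moved the share of higher calls. In the Prdm16 knockout it was 45.9%, 55.0% with TMM and 39.3% with total fragments, in the PR domain knockout 44.2% and 54.4% with DESeq2 size factors, and in the difference of effects 52.4%, 37.0% with total fragments and 58.6% with TMM. Depth limits Timd4, Ms4a7 and Il1b in the Prdm16 set.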
